A study of Homo sapiens with 24 samples.

Results

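The receptor SMADs SMAD1, SMAD2, SMAD3, SMAD5 and SMAD9, the common partner SMAD4 and the 4 ID genes were followed through 24 one-colour microarrays of 2 human hepatocellular carcinoma (HCC) cell lines. These 10 genes were chosen by name, as the non-control probes whose accession belongs to one of them, out of 31204 genes named on the array. They were measured by 13 probes, 1 for each gene except SMAD4, SMAD9 and ID2, which had 2 each. PLC/PRF/5 and SNU-449 are established HCC lines, each used as a single cell line and not as a panel of clones or donors. In each line 3 independent cultures were profiled in each of 4 groups, namely untreated control, TGFβ1 at 1 ng/mL, galunisertib at 10 µM, and both together. All cells were serum starved overnight and RNA was taken after 16 h of treatment. Galunisertib is a small molecule inhibitor of the kinase of TGFβ receptor type 1.

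SMAD proteins carry the signal of the TGFβ family from the receptors at the membrane to the nucleus. TGFβ and activin receptors phosphorylate SMAD2 and SMAD3, bone morphogenetic protein (BMP) receptors phosphorylate SMAD1, SMAD5 and SMAD9, and both kinds of receptor SMAD then bind SMAD4. The ID proteins (inhibitors of DNA binding) are helix-loop-helix proteins with no DNA-binding region of their own. They pair with E proteins such as TCF3, TCF4 and TCF12 and keep them off their E-box sites, ID genes are well known targets of BMP signalling, and TGFβ is known to lower or to raise ID1 and ID3 according to the cell. Arrays measure RNA, so nothing here bears on the phosphorylation of a SMAD.

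Levels are log2 of the processed intensity over the 75th percentile of the array, so that a level of 0 is that percentile and a difference of 1 is a doubling. The 75th percentile was 145 to 262 intensity units (median 227), 41.6% to 49.6% of probes were well above background, and 0 spots were saturated. Values were held at a floor of -4.13. A gene was called changed at a Benjamini-Hochberg adjusted p below 0.05 (limma) over all genes tested, 16101 in SNU-449, 16684 in PLC/PRF/5 and 17902 over both lines. Every group had the same position on each slide, with TGFβ1 set by the row (arrays without it in the first, with it in the second) and line and galunisertib set by the column, so position cannot be told apart from TGFβ1, galunisertib or line. The 7 hepatocyte markers were all well above background on the 12 PLC/PRF/5 arrays, while 4 of 7 were so on all SNU-449 arrays, and APOB and TF were so on 0 of them. On the control arrays their summed level, in units of the 75th percentile, was 483 to 750 in PLC/PRF/5 and 0.941 to 1.02 in SNU-449. Of 5 mesenchymal markers 4 were higher in SNU-449 and FN1 was higher in PLC/PRF/5, with sums of 165 to 193 in PLC/PRF/5 and 545 to 636 in SNU-449. Of 6 markers of other cell types, PECAM1 (endothelial) was well above background on 0 arrays and CD68 had no named probe. PTPRC was well above background on 12 PLC/PRF/5 and 11 SNU-449 arrays, PDGFRB on 12 and 12, CDH5 on 8 and 5, and ACTA2 on 0 and 12. The 5 measured genes summed to 2.03 to 2.12 in PLC/PRF/5 and 0.753 to 1.02 in SNU-449 controls. Over the 12 PLC/PRF/5 arrays the mean level was 0.62 for PDGFRB, -2.95 for PTPRC and -3.21 for CDH5, so the sum there was mostly PDGFRB.

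The promoter windows of the 4 ID genes are shown because these genes carried most of the changes below, and because the short SMAD-binding letters CAGAC (or GTCTG on the other strand) and the BMP-type letters GGCGCC can be looked for in them. Each window is the RefSeq sequence (GRCh38.p14) from 250 bases before to 50 bases after the gene's start, read 5′ to 3′ on the strand of the gene, in lower case with any of these letters in capitals. ID1 lies at chr20:31605039-31605338 on the plus strand, ID2 at chr2:8681806-8682105 on the plus strand, ID3 at chr1:23559452-23559751 on the minus strand and ID4 at chr6:19837120-19837419 on the plus strand.
ID1: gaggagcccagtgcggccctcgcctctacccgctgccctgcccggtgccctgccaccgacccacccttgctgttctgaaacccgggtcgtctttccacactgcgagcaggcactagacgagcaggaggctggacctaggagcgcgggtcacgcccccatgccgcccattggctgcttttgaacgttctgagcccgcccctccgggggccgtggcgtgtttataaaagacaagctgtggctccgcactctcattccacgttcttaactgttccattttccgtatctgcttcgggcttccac
ID2: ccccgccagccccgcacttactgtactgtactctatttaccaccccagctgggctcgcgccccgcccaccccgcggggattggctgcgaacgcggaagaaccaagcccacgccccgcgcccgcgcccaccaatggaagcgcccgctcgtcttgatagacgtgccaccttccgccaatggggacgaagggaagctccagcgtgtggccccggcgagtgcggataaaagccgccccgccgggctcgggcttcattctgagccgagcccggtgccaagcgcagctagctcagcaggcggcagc
ID3: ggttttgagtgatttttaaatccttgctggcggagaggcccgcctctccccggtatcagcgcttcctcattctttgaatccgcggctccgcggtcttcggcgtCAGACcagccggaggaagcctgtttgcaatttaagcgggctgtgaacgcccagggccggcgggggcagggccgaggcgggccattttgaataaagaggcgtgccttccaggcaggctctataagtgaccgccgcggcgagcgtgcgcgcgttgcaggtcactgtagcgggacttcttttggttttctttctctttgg
ID4: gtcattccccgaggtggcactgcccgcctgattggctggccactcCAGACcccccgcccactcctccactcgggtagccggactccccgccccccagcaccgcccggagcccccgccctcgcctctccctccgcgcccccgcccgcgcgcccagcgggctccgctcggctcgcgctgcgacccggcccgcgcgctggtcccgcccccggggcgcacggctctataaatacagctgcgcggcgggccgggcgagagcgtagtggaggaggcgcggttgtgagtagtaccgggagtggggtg
CAGAC was found 1 time each in ID3 and ID4 and not in ID1 or ID2, and GGCGCC in none of the 4. The E-box letters CANNTG, the kind of site that E proteins bind, occurred 1 time each in ID2 and ID4. Of 35116 RefSeq promoter windows of the same length, 45.3% held CAGAC, 19.2% GGCGCC and 68.7% CANNTG, counting both strands. These letters are short and common, a match is not a binding site, and the sites known to serve ID genes may lie outside a window of 300 bases.

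Before any treatment the lines differed in nearly all of these genes, with the ID genes higher in PLC/PRF/5 and the SMADs mostly higher in SNU-449. ID1 was at 6.91, 7.07 and 7.16 on the PLC/PRF/5 control arrays and at 1.62, 1.67 and 1.97 on those of SNU-449. The difference was 5.30 (SE 0.13), a 39.3-fold higher level in PLC/PRF/5 (limma, adjusted p = 7.9e-18). ID2 was at 6.76, 6.40 and 6.64 in PLC/PRF/5 and at 2.01, 1.98 and 1.96 in SNU-449, 24.5-fold higher in PLC/PRF/5 (4.62, SE 0.28), and the other ID2 probe gave a difference of 4.68 (SE 0.15). ID3 was at 4.50, 4.48 and 4.58 against 1.15, 1.47 and 1.54, 8.79-fold higher in PLC/PRF/5 (3.14, SE 0.15). ID4, an ID family member with more restricted expression, was at 3.27, 3.35 and 3.14 in PLC/PRF/5. In SNU-449 it was faint, at -2.82, -3.22 and -3.78, which gave a difference of 6.53 (SE 0.27). For each ID gene every PLC/PRF/5 control array was above every SNU-449 control array. Here and below, statements of arrays without overlap compare 3 arrays with 3, describe single genes and are not tests. The share of all genes without overlap is not given here. In RNA from whole cultures, fewer cells expressing a gene and less of its RNA per cell cannot be told apart.

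Among the SMADs, SMAD1 was lower in PLC/PRF/5 by 1.97 (SE 0.11), with control arrays at 0.63, 0.72 and 0.66 against 2.55, 2.65 and 2.71. SMAD4, through its brighter probe, was at 2.09, 2.24 and 2.31 against 3.79, 3.98 and 3.96, so that it was 3.25-fold lower in PLC/PRF/5, and its other probe differed by -1.14 (SE 0.12). SMAD2 was 2.53-fold lower and SMAD3 2.30-fold lower in PLC/PRF/5. SMAD9, the receptor SMAD of the BMP branch with the most restricted expression, went the other way. Its brighter probe was at -2.54, -1.97 and -2.66 on the PLC/PRF/5 control arrays and below the background limit on all SNU-449 controls, a level at least 3.18-fold higher in PLC/PRF/5 (limma, adjusted p = 0.00057). The measured difference of 1.74 is set by the floor, and although it was called under every alternative run, it lay at 0.58 for SMAD9 with normexp correction, below that bound, and at 5.34 with the authors' normalised values. In all, 9 of 10 genes were called, 5 higher and 4 lower in PLC/PRF/5, against a background of 68.5% of all genes tested (33.9% higher and 34.6% lower), so that most genes of any kind differed between these lines. The median difference of the 10 genes was 0.48, beside 0.06 over all genes tested.

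SMAD5 was the gene not called between the lines. Its control arrays were at 0.18, 0.08 and -0.28 in PLC/PRF/5 and at 0.63, 0.84 and 0.87 in SNU-449, without overlap. Its only spot lay in the first row of the array grid, and on 1 SNU-449 array (TGFβ1 with galunisertib, replicate 1) it was at the floor while the other 2 arrays of that group were at 1.48 and 1.06. With that array in the fit, the SE of the SMAD5 differences between 2 groups of SNU-449 was 1.14. With that array left out, a choice made after seeing the data, SMAD5 was lower in PLC/PRF/5 by 0.78 with adjusted p = 9.6e-06 in place of 0.42. Spots of SMAD3, ID3, the brighter SMAD9 probe and the dimmer ID2 probe also lay in the outer rows or columns of the grid, and the part of this position in their values was not tested.

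**Figure D1:**
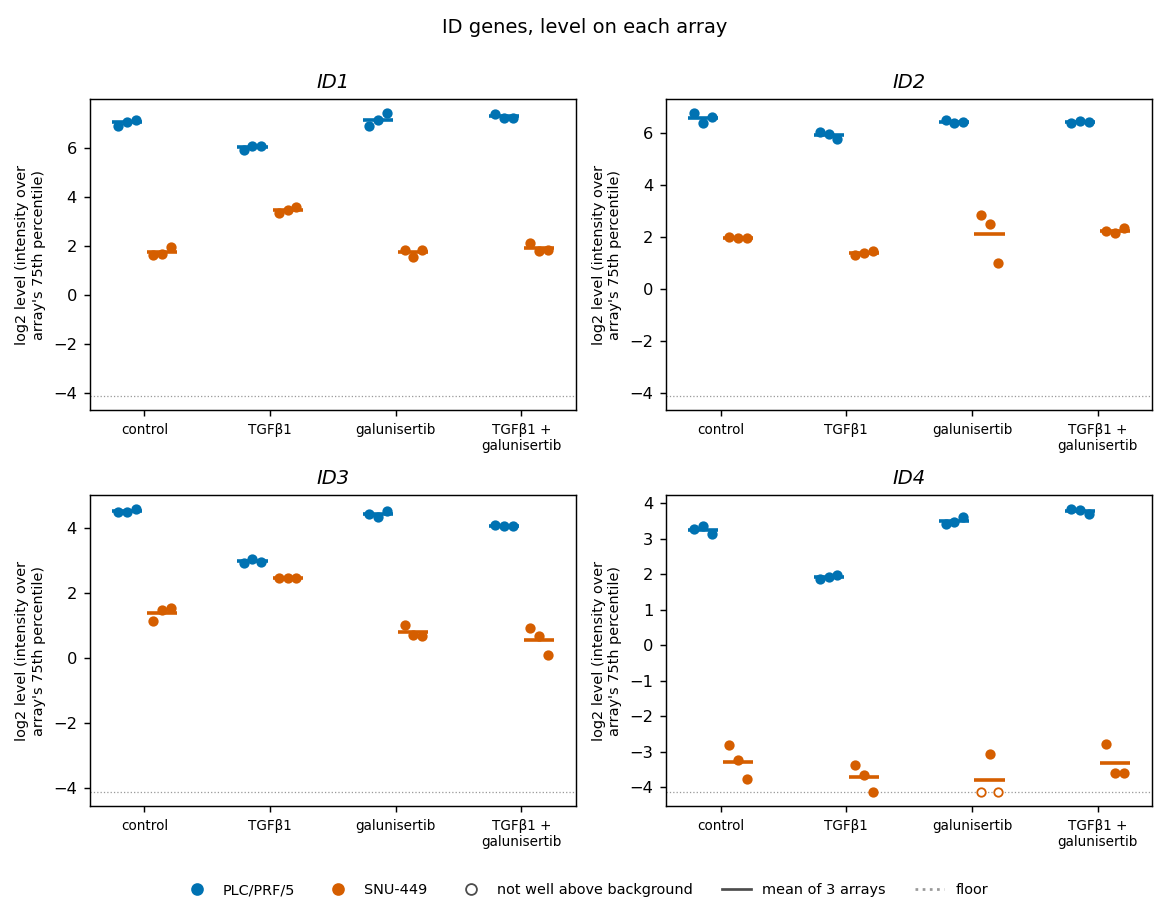
Level of ID1, ID2, ID3 and ID4 on each array (y axis, log2 of intensity over the 75th percentile of the array) by treatment (x axis), for PLC/PRF/5 in blue and SNU-449 in orange. Points are arrays, bars the means of 3 arrays, open points not well above background. Under TGFβ1 ID1 and ID3 fall in PLC/PRF/5 and rise in SNU-449, and the gap in ID3 narrows from 3.14 between the controls to the distance between 2.99 and 2.47.

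TGFβ1 moved ID1 and ID3 in opposite directions in the 2 lines. In PLC/PRF/5 ID1 was at 5.93, 6.09 and 6.10 with TGFβ1, each below all 3 control arrays, a fall of 2.01-fold (SE 0.13 on the log2 scale, limma, adjusted p = 0.0007). In SNU-449 ID1 was at 3.35, 3.47 and 3.58 with TGFβ1, each above all 3 controls, a rise of 3.29-fold (1.72, SE 0.14, limma, adjusted p = 3.6e-05). The difference between the 2 effects, tested directly over all 24 arrays, was 2.72 (SE 0.19, limma, adjusted p = 1.2e-08).

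ID3 showed the same opposition. It was at 2.93, 3.06 and 2.97 with TGFβ1 in PLC/PRF/5, 2.90-fold below control (-1.54, SE 0.07, limma, adjusted p = 1.2e-06). In SNU-449 it was at 2.48, 2.46 and 2.48, 2.12-fold above control (1.08, SE 0.20, limma, adjusted p = 0.0058). The arrays with and without TGFβ1 did not overlap in either line. The difference between the effects was 2.62 (SE 0.21, limma, adjusted p = 1.0e-07). The rise in SNU-449 missed the threshold without replicate 1 (adjusted p = 0.052) and without replicate 2 (adjusted p = 0.11), with sizes of 0.96 and 1.13.

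ID2 and ID4 gave lower values with TGFβ1 in both lines, and limma called the fall in PLC/PRF/5 alone. ID2 was at 6.03, 5.98 and 5.76 with TGFβ1 in PLC/PRF/5, 1.59-fold below control (-0.67, SE 0.10), and its other probe fell by 0.72 (SE 0.11). In SNU-449 ID2 was at 1.30, 1.40 and 1.47 with TGFβ1, below all control arrays, but the difference of -0.59 (SE 0.36) was not called (limma, adjusted p = 0.37). That SE draws on all groups of the line, and the galunisertib group, outside this comparison, had a standard deviation of 0.97. With the methods' t-test the same difference was called (adjusted p = 0.015). The other ID2 probe gave -0.41 (SE 0.18), without overlap and not called (limma, adjusted p = 0.21). The 2 effects on ID2 differed by 0.08 (SE 0.39), which was not called (limma, adjusted p = 0.95). ID4 fell 2.52-fold in PLC/PRF/5, to 1.85, 1.93 and 1.97 (-1.34, SE 0.08, limma, adjusted p = 6.1e-06). In SNU-449 ID4 stayed near the floor, at -3.36, -3.64 and -4.13 with TGFβ1, and its difference of -0.44 (SE 0.37) was not called. The difference between the effects on ID4, 0.90 (SE 0.39), was not called either (limma, adjusted p = 0.19). With normexp background correction it was called, at a similar size (limma, adjusted p = 0.00025), so the call depended on the background correction. Because ID4 was near the floor in SNU-449, a fall there could not be fully measured, and neither setting settles whether the lines differed.

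Of the SMADs, SMAD3 alone was called under TGFβ1, and in PLC/PRF/5 only. There SMAD3, a transcription factor of the TGFβ branch, was at 3.34, 3.38 and 3.57 in controls and between 3.95 and 4.01 on the 3 arrays with TGFβ1, a rise of 1.47-fold (0.56, SE 0.08, limma, adjusted p = 0.0012). In SNU-449 it was at 4.54, 4.65 and 4.69 in controls and at 4.90, 4.86 and 4.96 with TGFβ1, without overlap, and the difference of 0.28 (SE 0.08) was not called (limma, adjusted p = 0.059). The test of the difference between the lines gave -0.28 (SE 0.10, limma, adjusted p = 0.11). SMAD4 differed by 0.26 (SE 0.08) in PLC/PRF/5, which was not called (limma, adjusted p = 0.050), and by 0.16 (SE 0.12) in SNU-449. The other SMAD4 probe gave 0.12 (SE 0.10, limma, adjusted p = 0.53) in PLC/PRF/5 and 0.31 (SE 0.14, limma, adjusted p = 0.21) in SNU-449. SMAD5 was at 0.38, 0.25 and 0.26 with TGFβ1 in PLC/PRF/5, a difference of 0.30 (SE 0.11, limma, adjusted p = 0.11). In SNU-449 it was at 1.19, 1.28 and 1.25, above all controls by 0.46, with adjusted p = 0.87 on all arrays and 0.044 without the array whose SMAD5 spot was at the floor. SMAD1 and SMAD2 differed by between -0.18 and 0.16 in the 2 lines and were not called. In SNU-449 SMAD9 was not tested, since no group had it well above background on all arrays. Its brighter probe was well above background on 2 SNU-449 arrays, both with TGFβ1, at -1.66 and -3.78. The probes of SMAD9 went apart under TGFβ1 in PLC/PRF/5, by 0.16 (SE 0.20) for the brighter one, not called, and by -0.44 (SE 0.11, limma, adjusted p = 0.027) for the dimmer one.

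In all, 5 of 10 genes were called in PLC/PRF/5, 1 higher and 4 lower, against 13.5% of all genes tested (6.27% higher and 7.24% lower). In SNU-449 it was 2 of 9, both higher, against 10.5% (5.73% higher and 4.75% lower). The effects of TGFβ1 differed between the lines for 2 of 10 genes, ID1 and ID3, against 8.62% of all genes (4.29% more positive and 4.33% more negative in SNU-449). The medians of the members were -0.01 and 0.16, beside -0.04 and 0.02 over all genes. The PLC/PRF/5 calls of ID2 and SMAD3 were lost with each array scaled to its median (adjusted p = 0.077 and 0.13), that of ID2 without replicate 3 (0.082) and that of SMAD3 without replicate 2 (0.076), and without any scaling those of ID1, ID2 and SMAD3 were lost (0.12, 0.44 and 0.075). The summed level of the markers of other cell types in PLC/PRF/5 was 2.97 to 2.99 with TGFβ1 against 2.03 to 2.12 in controls. ACTA2 and PECAM1 were below the background limit on all 12 arrays of the line, and the sum was mostly the single gene PDGFRB. Its part in these results was not tested.

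**Figure D2:**
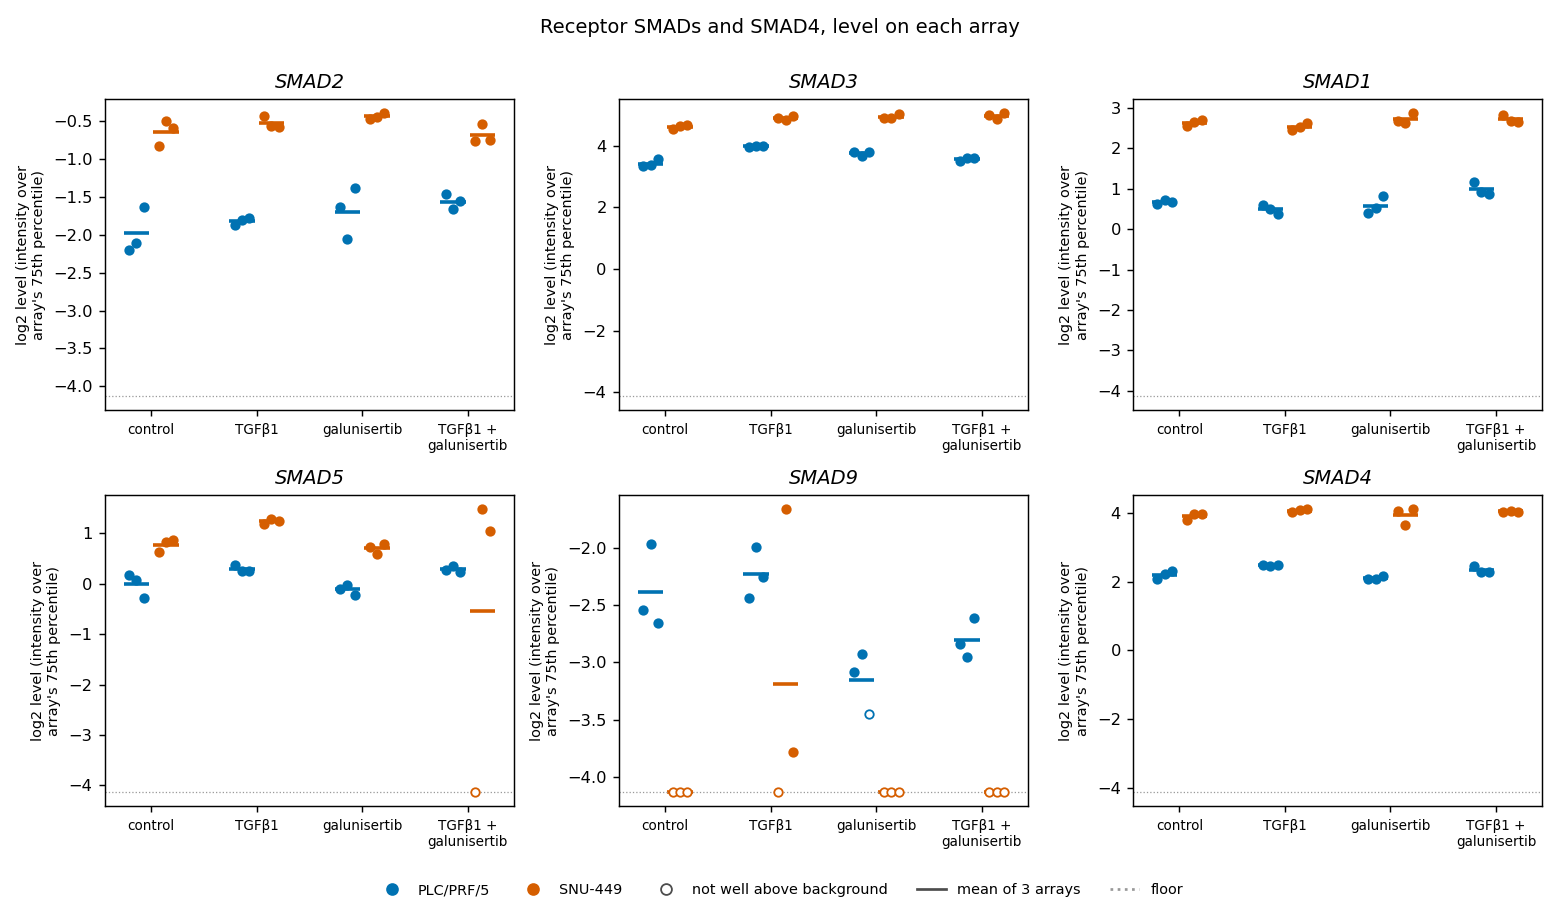
Level of the 5 receptor SMADs and SMAD4 on each array (y axis, log2 of intensity over the 75th percentile of the array) by treatment (x axis), PLC/PRF/5 in blue and SNU-449 in orange, bars the means of 3 arrays, open points not well above background. SMAD3 in PLC/PRF/5 stands between 3.95 and 4.01 with TGFβ1, above its controls at 3.34 to 3.57. The single open SMAD5 point at the floor is the array discussed in the text.

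Galunisertib added to TGFβ1 moved the ID genes that TGFβ1 had changed the opposite way, upwards in PLC/PRF/5 and downwards in SNU-449. These comparisons share the TGFβ1 arrays with those above, so the 2 sets of values are not independent. In either line the difference between both agents and control was not tested, so positions against the control arrays are description only. In PLC/PRF/5 the arrays with both agents were at 7.41, 7.22 and 7.24 for ID1, a rise of 1.25 (SE 0.13) over TGFβ1, with each array above the highest control. ID2 was at 6.41, 6.47 and 6.43, a rise of 0.51 (SE 0.10), with 0.73 (SE 0.11) for the other probe. ID3 was at 4.10, 4.06 and 4.05, a rise of 1.08 (SE 0.07), which left each array below the lowest control. ID4 was at 3.83, 3.81 and 3.69, a rise of 3.63-fold (1.86, SE 0.08, limma, adjusted p = 3.5e-07), which put each array above the highest control. All 4 ID genes were thus called higher, beside 25.8% of all genes called higher in this comparison. The split of all genes into higher and lower calls depended on the scaling. Higher calls were 66.0% of all calls here, 39.7% with the 75th percentile over probes detected on all arrays and 82.8% with array-median scaling. The summed level of the markers of other cell types, mostly PDGFRB, was at most 1.66 on the arrays with both agents. It was 2.97 to 2.99 with TGFβ1 alone, and its part in the result was not tested.

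In SNU-449 ID1 was at 2.12, 1.80 and 1.84 with both agents, 2.93-fold below TGFβ1 alone (-1.55, SE 0.14, limma, adjusted p = 4.1e-05). ID3 was at 0.91, 0.68 and 0.08, 3.77-fold below TGFβ1 alone (-1.91, SE 0.20, limma, adjusted p = 0.00011), with each array below the lowest control. ID2 was at 2.23, 2.16 and 2.35, above all TGFβ1 arrays, and its brighter probe missed the threshold (0.86, SE 0.36, limma, adjusted p = 0.14), while the other probe was called (0.74, SE 0.18, limma, adjusted p = 0.020). The brighter probe was most spread on the arrays with galunisertib alone, at 2.84, 2.51 and 1.02. No SMAD was called. These 2 calls of 9 genes tested stand beside 17.1% of all genes, 9.72% higher and 7.35% lower.

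Among the SMADs of PLC/PRF/5, SMAD3 fell by 0.41 (SE 0.08) when galunisertib was added to TGFβ1, to 3.52, 3.61 and 3.61. SMAD1, a transducer of the BMP branch, went from 0.60, 0.50 and 0.37 with TGFβ1 to 1.18, 0.92 and 0.88 with both agents, a rise of 1.42-fold (0.50, SE 0.12, limma, adjusted p = 0.0066). SMAD9 went from -2.44, -1.99 and -2.26 to -2.84, -2.96 and -2.62, a fall of 1.49-fold (-0.57, SE 0.20, limma, adjusted p = 0.042). In none of these 3 did the groups overlap, with SMAD9 taken through its brighter probe. The dimmer SMAD9 probe gave -0.29 (SE 0.11, limma, adjusted p = 0.055), which was not called, and its groups overlapped. In all, 7 of 10 genes were called, 5 higher and 2 lower, beside 39.1% of all genes, of which the lower calls were 13.3% of those tested. The SMAD9 call was lost without any 1 of the 3 replicates (adjusted p from 0.067 to 0.15), and scaling to the array median ended those of SMAD3 and SMAD9 (0.41 and 0.16). Those of SMAD1 without replicate 2 (0.068) and ID2 without replicate 3 (0.059) were lost as well.

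**Figure D3:**
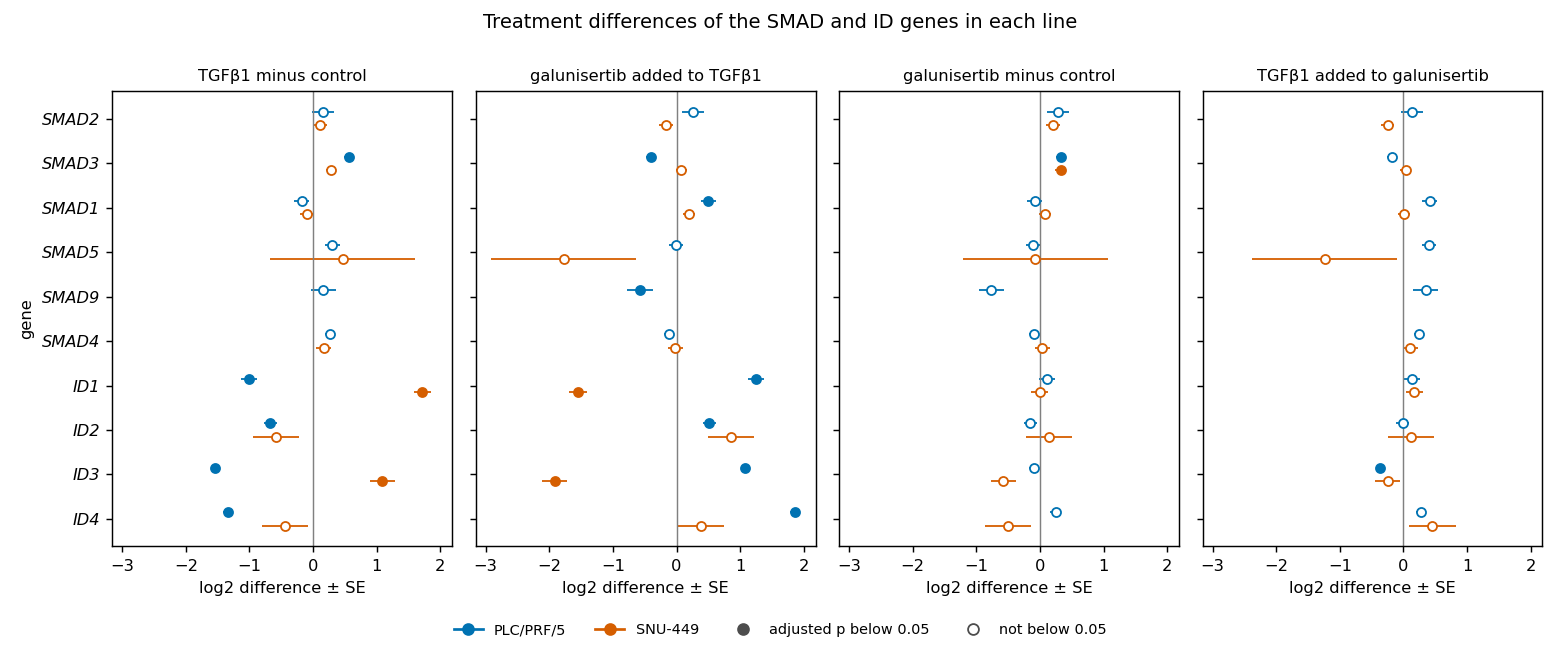
Log2 difference with its SE (x axis) of each SMAD and ID gene (y axis) in 4 comparisons, PLC/PRF/5 in blue and SNU-449 in orange, filled where the adjusted p was below 0.05. Under TGFβ1 ID1 stands below 0 in PLC/PRF/5 and at 1.72 in SNU-449, and ID3 at -1.54 and 1.08, and both change sides when galunisertib is added. The long bars of SMAD5 in SNU-449 (SE 1.14) come from 1 spot at the floor, and SMAD9 was not tested in SNU-449.

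Under galunisertib without added TGFβ1, SMAD3 was the gene called, in both lines. It rose by 0.33 (SE 0.08, limma, adjusted p = 0.038) to 3.79, 3.67 and 3.81 in PLC/PRF/5 and by 0.32 (SE 0.08, limma, adjusted p = 0.043) to 4.92, 4.91 and 5.02 in SNU-449, without overlap with the controls in either line. Both calls lie close to the threshold and were lost without any 1 of the 3 replicates, and the call was kept under 4 of 15 settings in PLC/PRF/5 and 5 of 16 in SNU-449. With normexp correction the SMAD3 difference in SNU-449 was 0.04 (adjusted p = 0.81). No ID gene was called through its brighter probe. In PLC/PRF/5 the summed level of the markers of other cell types, mostly PDGFRB, was 1.19 to 1.60 under galunisertib against 2.03 to 2.12 in controls. Its part was not tested. ID1 differed by 0.11 (SE 0.13) in PLC/PRF/5 and by 0.00 (SE 0.14) in SNU-449. ID3 was lower in SNU-449, at 1.03, 0.71 and 0.69, below all controls by 0.58 (SE 0.20), and was not called (limma, adjusted p = 0.10). ID2 in SNU-449 was called through its other probe, with a rise of 0.78 (SE 0.18, limma, adjusted p = 0.038), whose galunisertib arrays lay at 1.17, 0.89 and 0.70 and its controls at -0.03, 0.10 and 0.36. The brighter ID2 probe did not bear the same call (0.14, SE 0.36), with replicate 3 at 1.02 and the others at 2.84 and 2.51.

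SMAD9 in PLC/PRF/5 differed by -0.76 (SE 0.20) under galunisertib through its brighter probe, not called (limma, adjusted p = 0.053), with arrays at -3.09, -2.93 and -3.45. Its dimmer probe was below the background limit on all 3 galunisertib arrays, at least 1.61-fold lower than in controls (limma, adjusted p = 0.0052). In all, 1 of 10 genes was called in PLC/PRF/5 and 1 of 9 in SNU-449, both higher, beside 5.42% (3.67% higher and 1.75% lower) and 7.43% (5.35% higher and 2.08% lower) of all genes tested. The effect of galunisertib differed between the lines for 0 of the 10 genes by limma, beside 5.87% of all genes tested (3.43% and 2.44% in the 2 directions), with 1 gene, ID3, at an unadjusted p under 0.05 (-0.49, SE 0.21, adjusted p = 0.22). For SMAD9 this test cannot compare the lines, since its brighter probe was at the floor on all SNU-449 control and galunisertib arrays.

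With galunisertib present, 1 of the 10 genes was called for TGFβ1 in PLC/PRF/5. ID3 in PLC/PRF/5 was lower with both agents than with galunisertib alone, by 0.36 (SE 0.07, limma, adjusted p = 0.021), against 1.54 without galunisertib, and the call was lost without any 1 of the replicates. The other 9 genes were not called, among them ID4 (0.28, SE 0.08, adjusted p = 0.061), SMAD1 (0.41, SE 0.12, adjusted p = 0.054) and SMAD5 (0.40, SE 0.11, adjusted p = 0.056), each above its galunisertib arrays without overlap. In SNU-449 limma called 0 of 9 genes, and SMAD2 alone had an unadjusted p under 0.05 (-0.25, SE 0.11, adjusted p = 0.26). All genes were called at 8.55% in PLC/PRF/5 (3.59% higher and 4.96% lower) and at 1.9% in SNU-449 (0.938% higher and 0.963% lower).

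The interaction, the change of the TGFβ1 effect in the presence of galunisertib, was called for all 4 ID genes and SMAD3 in PLC/PRF/5. It was 1.14 (SE 0.18) for ID1, 0.66 (SE 0.14) for ID2, 1.17 (SE 0.10) for ID3, 1.61 (SE 0.12) for ID4 and -0.74 (SE 0.11) for SMAD3. In SNU-449 it was -1.55 (SE 0.19, limma, adjusted p = 0.0023) for ID1 and -1.34 (SE 0.28, limma, adjusted p = 0.036) for ID3. The counts were 5 of 10 and 2 of 9, beside 8.76% (4.47% positive and 4.29% negative) and 2.62% (0.801% and 1.82%) of all genes. In SNU-449 both calls were lost when any 1 of the replicates was left out (limma, adjusted p from 0.051 to 0.25). The sizes then were -1.50 to -1.60 for ID1 and -1.23 to -1.49 for ID3. The ID3 call was also lost with the replicate number as a block (0.067), with array-median scaling (0.054) and with no scaling (0.087). In PLC/PRF/5 that of ID4 held without each replicate in turn, that of ID3 was lost without replicate 3, that of ID1 without replicates 2 and 3, and those of ID2 and SMAD3 without any 1 of them. Array-median scaling also ended the PLC/PRF/5 calls of ID2 and SMAD3 (adjusted p = 0.30 and 0.41). With no scaling those of ID1, ID2, ID3 and SMAD3 were lost (0.40, 0.97, 0.32 and 0.77), and ID4 alone was called. Over all genes, leaving out 1 replicate cut the interaction calls from 422 to between 45 and 98 in SNU-449. In PLC/PRF/5 it cut them from 1462 to between 21 and 214.

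The other genes of the pathway were described from 7 lists by function. Beside the list counts under TGFβ1, 5.73% of all genes tested were called higher and 4.75% lower in SNU-449. In PLC/PRF/5 these shares were 6.27% and 7.24%. In SNU-449 TGFβ1 raised 8 of 12 inhibitors and feedback genes and lowered 1, with a median of 0.65. Among them LDLRAD4, a membrane protein that holds back receptor SMADs, rose by 3.00 (SE 0.28, with 2 of 3 control arrays well above background), PMEPA1, a related TGFβ-induced inhibitor, by 1.39 (SE 0.37) and BAMBI, a decoy receptor, by 0.97 (SE 0.10). In PLC/PRF/5 TGFβ1 raised 6 of 10 tested, with a median of 0.54, among them the SMAD corepressor SKIL (1.63, SE 0.11) and the inhibitory SMAD7 (0.80, SE 0.11). PMEPA1 was called there too, with control arrays below the background limit. The 8 TGFβ response genes all rose in SNU-449 (median 1.51). Of 5 tested in PLC/PRF/5, 2 rose and 1 fell. The one that fell was CCN2, a matricellular growth factor (-0.82, SE 0.17), and its effect differed between the lines by 2.34 (SE 0.21).

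On the BMP side, TGFβ1 lowered BMP4, a BMP ligand, by 1.28 (SE 0.13) in SNU-449. There it raised 3 of the 7 tested genes of the list of BMP ligands and antagonists, among them NOG, a secreted BMP antagonist, by 2.63 (SE 0.30). The ligand BMP6 rose by 0.76 (SE 0.09) and FST, which binds activins, by 0.75 (SE 0.07) in PLC/PRF/5, 2 of 5 tested. BMPR2, the type 2 BMP receptor, rose in both lines, by 1.24 (SE 0.13) in SNU-449 and by 0.90 (SE 0.14) in PLC/PRF/5. TGFBR2, the type 2 TGFβ receptor, fell by 0.72 (SE 0.16) in SNU-449. In all, 4 of 9 receptors tested were called in SNU-449 and 3 of 10 in PLC/PRF/5, beside 10.5% and 13.5% of all genes. Of the BMP response genes tested, 3 of 3 rose in SNU-449 and 2 of 3 in PLC/PRF/5, and HEY1, a transcriptional repressor, rose in both, by 1.76 (SE 0.12) and 1.23 (SE 0.11).

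Among the partners and targets of ID proteins, TGFβ1 raised all 3 E proteins in SNU-449, TCF12 by 0.71 (SE 0.16), TCF4 by 0.46 (SE 0.08) and TCF3 by 0.33 (SE 0.09), 3 of 5 tested. For the same list limma called 0 of 6 in PLC/PRF/5, with 0 at an unadjusted p under 0.05. The difference between the lines was called for 0 of these 6 genes by limma, with 1, TCF12, at an unadjusted p under 0.05 (adjusted p = 0.066), so that it is not shown that they respond differently. By limma the SMAD cofactors had 0 of 9 called in SNU-449, with 1 at an unadjusted p under 0.05, and 1 of 8 in PLC/PRF/5, the phosphatase PPM1A (0.36, SE 0.07). These counts stand beside the same 10.5% and 13.5% of all genes.

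When galunisertib was added to TGFβ1, the 8 TGFβ response genes all fell in SNU-449 (median -1.86), and 9 of 12 inhibitors and feedback genes fell while 1 rose, beside 7.35% of all genes called lower and 9.72% higher. In PLC/PRF/5 8 of 10 inhibitors and feedback genes fell, with SKIL lower by 2.06 (SE 0.11), and of 5 TGFβ response genes 3 fell and 1, CCN2, rose by 1.59 (SE 0.17), beside 13.3% of all genes called lower and 25.8% higher. Of the BMP side, BMP4 rose by 1.83 (SE 0.13) and NOG fell by 3.77 (SE 0.30, with 2 of 3 arrays of both agents well above background) in SNU-449, and BMP2, another ligand, rose by 0.74 (SE 0.11) in PLC/PRF/5. BMPR2 fell in both lines, by 1.38 (SE 0.13) in SNU-449 and by 1.51 (SE 0.14, with 2 of 3 arrays of both agents well above background) in PLC/PRF/5. Under galunisertib alone 6 of 8 TGFβ response genes and 4 of 12 inhibitors and feedback genes fell in SNU-449, against 0 of 5 called by limma (2 at an unadjusted p under 0.05) and 2 of 10 lower with 1 higher in PLC/PRF/5. Of all genes tested under galunisertib alone, 2.08% were called lower in SNU-449 and 1.75% in PLC/PRF/5. SMAD7 fell in both lines under galunisertib alone, by 1.90 (SE 0.13) and by 0.44 (SE 0.11).

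**Figure D4:**
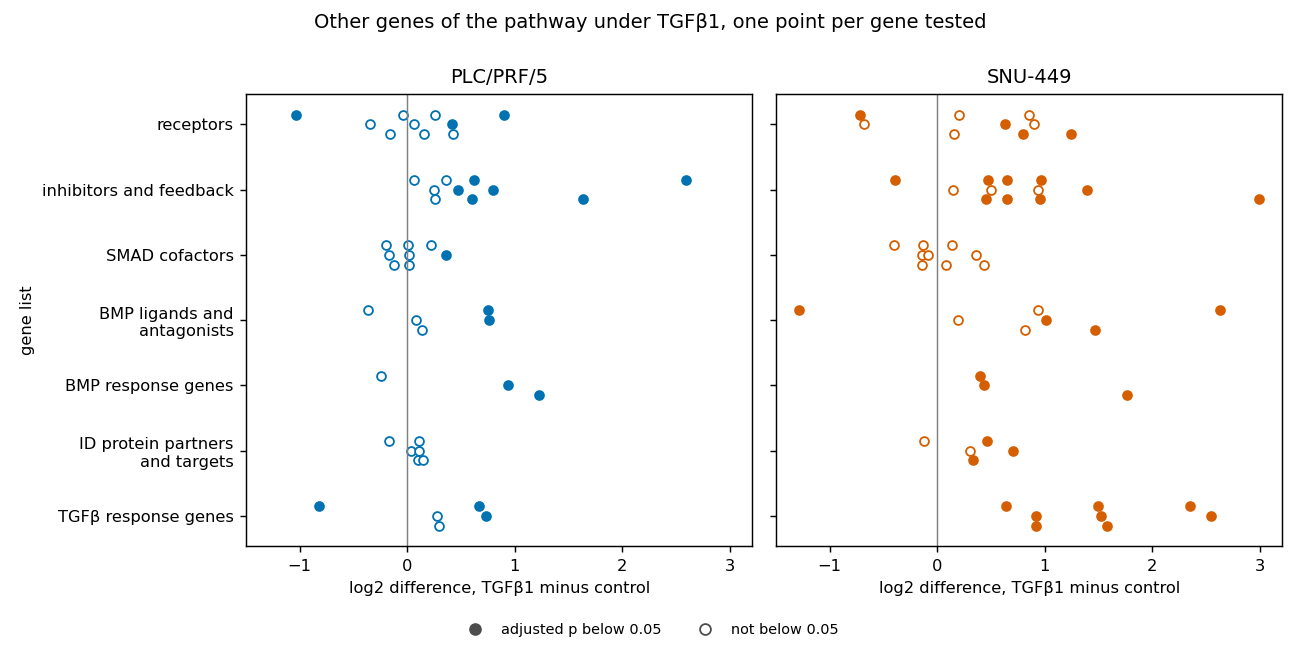
Log2 difference between TGFβ1 and control (x axis) of each tested gene of the 7 pathway lists (y axis), PLC/PRF/5 on the left and SNU-449 on the right, 1 point per gene, filled where the adjusted p was below 0.05. In SNU-449 all 8 TGFβ response genes are filled and above 0, and in PLC/PRF/5 3 of 5 are filled, 1 of them below 0. Of the inhibitors and feedback genes in PLC/PRF/5, 6 of 10 are filled, each of them above 0.

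The genes whose pattern was most like that of ID1, ID2, ID3 and SMAD3 were ranked by Pearson correlation over the 24 arrays, among 12744 genes well above background on all arrays, after the mean of each line was taken off. The 24 points share treatments, slides and scaling, so the values only describe likeness. For ID1 these were PLXND1 (0.93), YTHDF1, MARCKSL1, STEAP3 and MCFD2 (0.90). For ID3 they were IGFBP3 (0.89), VLDLR, HPS5, ID1 (0.86) and CCN2 (0.85), so that ID1 and ID3 were near each other in this ranking. For ID2 they were GDF15 (0.89), ETV2, CD302, FOSL1 and EHD1 (0.83), and ID2 correlated with ID1 at -0.23 and with ID3 at -0.13. For SMAD3 they were MYH9 (0.83), MAP4K4, LOXL2, ZBTB4 and ATF6 (0.78).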

How the data were processed

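RNA from 24 cultures, 3 independent cultures in each of 8 groups of line and treatment, was hybridised to 1-colour Agilent SurePrint G3 arrays. Per the file headers and the submitters' processing notes, the scanner intensity values were extracted by the authors with Agilent Feature Extraction 10.7.3.1, and the background-subtracted processed intensity of each of 62976 spots was used. The deposited log2 table, normalised by the authors in GeneSpring to the 75th percentile and centred on the median of each probe, served as an alternative. Of its 30913 probes, 19267 were well above background on all 24 arrays. For these, the differences from the first array followed those of the scanner files (r 0.999, slope 1.00). Fainter probes were left out of this check.

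Control and flagged spots were left out, spots of a probe averaged, and log2 of the intensity over the 75th percentile of the array taken, with a floor at 5.70% of that percentile. A probe was tested where every array of at least 1 group had it well above background, and the brightest such probe stood for its gene. limma 3.58.1 (R 4.3.3) was fitted within each line over 12 arrays and between lines over 24, with Benjamini-Hochberg adjustment over all genes and calls at 0.05. The number of arrays limits the precision. Fits were tested on simulated data. The pathway genes named were those called and among the 3 largest changes of their list.

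The replicate number is the slide. Deviations of arrays with the same number correlated above 0.1 in every pair in 3 comparisons, TGFβ1 with control in PLC/PRF/5 (0.17 to 0.31), the same in SNU-449 (0.13 to 0.22), and SNU-449 with both agents or TGFβ1 alone (0.10 to 0.27). Alternatives were background correction (normexp, run on the median spot signal), scaling, floor, probe choice and filter, slide as a block, each replicate left out, the authors' table, the methods' t-test and fold rule, and, added after seeing the data, 1 array left out. Columns without a sample numbered 0. The members and lists were chosen with earlier results of these data known. RefSeq (GRCh38.p14) supplied names and promoter windows only, since the array headers name hg19.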

Additional observations from a re-analysis of the deposited data

Results flagged for a closer look

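The effect of TGFβ1 differed between the lines for ID1 by 2.72 and for ID3 by 2.62 (SNU-449 minus PLC/PRF/5), each by a limma test of the difference itself (adjusted p = 1.2e-08 and 1.0e-07). The other, dimmer ID2 probe differed between the lines in its galunisertib effect by 0.79 (adjusted p = 0.037), while the brighter ID2 probe gave 0.29 (SE 0.39), which was not called. The fitted difference of the dimmer SMAD9 probe between the lines in its galunisertib effect, 0.98, passed the threshold, but its size is set by the floor: all SNU-449 control arrays, 2 of 3 SNU-449 galunisertib arrays and all PLC/PRF/5 galunisertib arrays were at it, so no difference between the lines is read from it. The brighter SMAD9 probe gave 0.76 (SE 0.55), not called. It was at the floor on all SNU-449 control and galunisertib arrays, so this value only mirrors the PLC/PRF/5 change and cannot compare the lines either.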

How the results depend on the processing

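Of 1887 values of single members recomputed under other settings, 1777 stayed on the same side of the threshold, 84 lost the call and 25 gained it. The remaining 1 was called in the direction opposite to its main value. A change of sign in a value that was not called was not counted as a turn. That 1 was SMAD3 with galunisertib added to TGFβ1 in SNU-449, at -0.31 with normexp correction (adjusted p = 0.045) against 0.08. The differences of ID1 and ID3 between the lines in the TGFβ1 effect were called under all settings, from 2.60 to 2.79 and from 2.36 to 2.72. The counts of members called moved as follows, and the cause was not tested. For galunisertib against control in SNU-449 (1) the count was 0 with normexp, array-median scaling, no scaling, the percentile over probes detected on all arrays, all probes tested, the methods' t-test, the fold rule and any replicate left out, or the array with the SMAD5 spot at the floor. For galunisertib against control in PLC/PRF/5 (1) it was 0 with normexp, array-median scaling, no scaling, all probes tested, the replicate block, the methods' t-test, the fold rule and any replicate left out, and 2 with the mean of all probes. For TGFβ1 added to galunisertib in PLC/PRF/5 (1) it was 3 with normexp and with probes detected on every array, 2 with the replicate block, and 0 with array-median scaling, no scaling, the methods' t-test, the fold rule and any replicate left out. For TGFβ1 against control in PLC/PRF/5 (5) it was 3 with array-median scaling and the fold rule, 2 with no scaling and 4 to 5 with a replicate left out. For TGFβ1 against control in SNU-449 (2) it was 4 with the methods' t-test and 1 to 3 with a replicate or the that array left out. For galunisertib added to TGFβ1 in PLC/PRF/5 (7) it was 3 with no scaling and the fold rule and 5 to 6 with a replicate left out. For the interaction in SNU-449 (2) it was 1 with array-median scaling, no scaling and the replicate block and 0 to 2 with a replicate or that array left out. For the interaction in PLC/PRF/5 (5) it was 3 with array-median scaling and the fold rule, 1 with no scaling and 1 to 3 with a replicate left out. In the paired comparisons the replicate block left the counts at 2, 5 and 2.

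Over all genes the count of calls ranged, across settings other than a left-out replicate, from 705 to 2118 (main 1688) for TGFβ1 in SNU-449 and from 484 to 2848 (2254) in PLC/PRF/5, from 87 to 1403 (1196) and from 36 to 985 (904) for galunisertib alone, from 1324 to 3884 (2748) and from 1010 to 9040 (6520) for galunisertib added to TGFβ1, and from 0 to 589 (306) and from 0 to 1781 (1426) for TGFβ1 added to galunisertib. For the interactions it ranged from 159 to 434 (422) and from 48 to 1745 (1462), between controls from 8970 to 19177 (12269), and for the line differences from 434 to 2025 (1543) and from 180 to 1307 (1051). With a replicate left out these counts fell to as low as 563 and 455 for TGFβ1, 159 and 2 for galunisertib alone, 1056 and 3562 for galunisertib added, 31 and 4 for TGFβ1 added and 45 and 21 for the interactions. At its own threshold on fold and unadjusted p the methods' t-test called 259 and 105 genes for TGFβ1, and after Benjamini-Hochberg 1486 and 1615. Array-median scaling moved the share of higher calls for TGFβ1 from 54.7% to 71.6% in SNU-449 and from 46.4% to 66.9% in PLC/PRF/5, and the median of all genes between the controls from 0.06 to -0.28. Signal over background limits ID4 and SMAD9 in SNU-449 and SMAD9 in PLC/PRF/5.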
